A study of Mus musculus with 50 samples.

Results

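Lymphocytes are recognised in tissue RNA by genes that few other cells use, and 7 such genes were followed here across mouse airways exposed to allergen or to the cytokine IL-13. They were Cd79a, Cd79b, Ms4a1 and Pou2af1 for B cells, Cd3e and Cd7 for T cells (Cd7 is also carried by natural killer cells), and Cd27, which both lineages use. They were chosen with earlier results of these data known and found by name in the annotation of the arrays. Each had 1 spot on each of the 2 array platforms used. The larger platform named 13409 genes and the smaller one 13509.

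RNA from tracheal perfusate or from whole lung was hybridised on 50 spotted arrays with 2 channels, in 10 groups of 5. In each tissue 1 group had received ovalbumin (OVA), the allergen, and 1 had received phosphate-buffered saline (PBS), with no genotype given in the labels. The other 3 groups of each tissue are named for IL-13 and differ in genotype: Stat6+/-, Stat6-/-, and Stat6-/- marked Epi+. Stat6 is the transcription factor that relays the IL-13 signal, and in mouse lines called Epi a transgene returns Stat6 to airway epithelial cells. No more than that mark stands in the labels, and no strain, age, dose or time was taken from them. The way in which IL-13 was supplied was not taken from them either. Whether each array stands for its own animal is not said, so every p-value below rests on array-to-array spread that may be technical.

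Each value is a log2 ratio against a reference RNA, centred on the median of its array, so that 0 is the level of the array's middle spot. A ratio orders groups for 1 gene but does not rank genes. The 25 perfusate arrays were set against reference preparations 1.1 to 1.5, with every group present once in each preparation, and the 15 whole lung IL-13 arrays against reference pools 3 and 4. Pool 2 and the smaller platform served the other 10 arrays, OVA and PBS of whole lung. Levels were therefore compared only within each of these 3 sets, and whole lung OVA could not be tested against whole lung IL-13. The direction, sample over reference, is likely but not stated: Il13 was higher than in PBS perfusate by 1.74 ± 0.21 (SE) in Stat6+/-, 2.05 ± 0.21 in Epi+ and 2.72 ± 0.21 in Stat6-/- perfusate. The Stat6 probe differed by -0.10 ± 0.14 in perfusate (limma, adjusted p = 0.851) and by -0.19 ± 0.28 in whole lung (limma, adjusted p = 0.766) between Stat6+/- and Stat6-/-, so it does not check the genotype labels.

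A B cell senses antigen with a membrane antibody that signals through the paired chains CD79A and CD79B. CD20, made from Ms4a1, sits beside that receptor, and OBF-1, made from Pou2af1, works with octamer-binding factors at antibody genes and is high in germinal centre and plasma cells. T cells signal through the CD3 chains, of which Cd3e encodes epsilon. CD27 is a co-stimulatory receptor whose ligand is CD70, and CD7 is a surface protein of early T cells and natural killer cells. Sensitised airways are known to gather B and T cells in response to inhaled allergen. In such bulk samples, fewer cells of a type and less RNA per cell cannot be told apart.

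In the mouse genome, build GRCm38.p6, Cd79a lies on chromosome 7 (24897497 to 24901858), Cd79b on chromosome 11 (106311341 to 106314562), Ms4a1 on chromosome 19 (11249679 to 11266149) and Pou2af1 on chromosome 9 (51213690 to 51240079). Cd27 lies on chromosome 6 (125232620 to 125237136), Cd3e on chromosome 9 (44998735 to 45009663) and Cd7 on chromosome 11 (121036747 to 121039478). Neither array measures promoters. The RefSeq promoter windows, from 250 bases before to 50 after a listed start site, are in the table used for 4 of the 7 members. For Cd79a and Pou2af1 that site is the gene start given above, and for Cd27 it lies inside the gene span given above. Of these windows 3 are shown. Cd79a is shown as a chain of the B cell receptor and Pou2af1 as the member with the largest difference in whole lung. Cd27 is shown as the member whose genotype difference was called different between the 2 tissues. Capitals mark matches to 5 motifs searched on both strands.
Cd79a, chr7:24897247-24897546, plus strand: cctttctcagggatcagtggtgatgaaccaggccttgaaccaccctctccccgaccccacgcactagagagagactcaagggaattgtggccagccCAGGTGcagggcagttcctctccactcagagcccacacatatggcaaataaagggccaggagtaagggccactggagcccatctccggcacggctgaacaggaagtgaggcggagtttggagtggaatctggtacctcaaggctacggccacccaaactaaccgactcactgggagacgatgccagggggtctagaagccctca
Pou2af1, chr9:51213440-51213739, plus strand: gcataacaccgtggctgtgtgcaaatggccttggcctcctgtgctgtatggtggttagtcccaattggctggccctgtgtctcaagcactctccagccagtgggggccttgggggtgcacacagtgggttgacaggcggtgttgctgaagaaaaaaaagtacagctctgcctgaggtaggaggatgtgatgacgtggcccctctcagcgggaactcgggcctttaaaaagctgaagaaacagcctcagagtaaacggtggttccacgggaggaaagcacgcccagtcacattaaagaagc
Cd27, chr6:125236978-125237277, minus strand: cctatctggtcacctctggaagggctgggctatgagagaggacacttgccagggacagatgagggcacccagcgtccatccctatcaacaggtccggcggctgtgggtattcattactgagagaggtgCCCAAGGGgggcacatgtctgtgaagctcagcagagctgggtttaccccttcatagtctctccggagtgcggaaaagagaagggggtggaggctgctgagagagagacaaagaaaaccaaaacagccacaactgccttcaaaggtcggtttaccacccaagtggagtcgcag
The Cd79a window held the E-box CAGGTG, its first base at -154 from the start, a motif found in 20.2% of all 32851 windows of this table. The Cd27 window held CCCAAGGG, a match to the EBF1 motif CCCNNGGG, and 13.7% of windows hold that motif. Its first base lay at -122 from the listed start site, and so nearer to the end of the gene span given above. No match to these or to the octamer ATTTGCAT (1.74% of windows), the palindromic Stat6 motif (6.95%) or the cAMP element TGACGTCA (1.79%) was found in the Pou2af1 window. The matches shown do not overlap another match, and a match is a description of letters, not a site.

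Calls on the members fell into 3 places. In whole lung, Ms4a1 and Pou2af1 rose with OVA. In perfusate none of the 7 was called for OVA against PBS, and Cd7 was lower with IL-13 in the Stat6+/- and Stat6-/- groups. Among the whole lung IL-13 groups Cd27 was lower in Stat6+/- than in Stat6-/-, while in perfusate its difference pointed the other way. The plot of members by group shows every array.

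**Figure D1:**
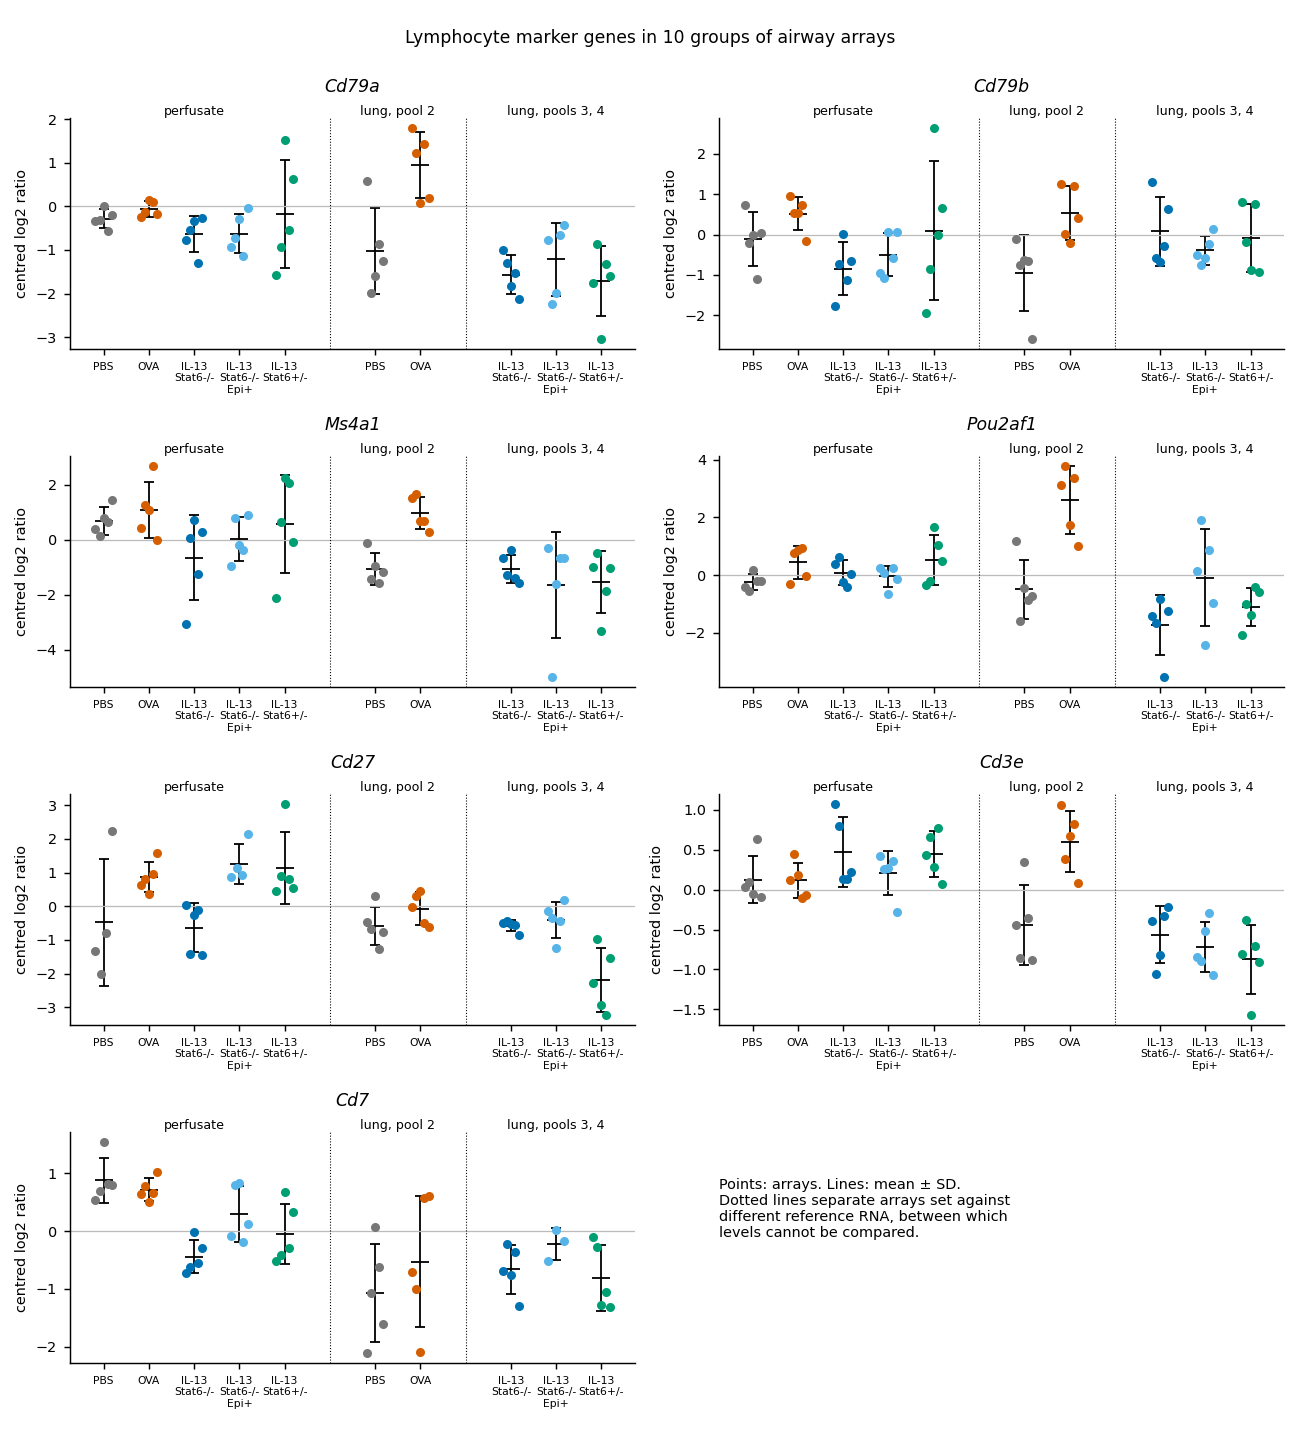
Centred log2 ratios (vertical axis) of the 7 genes on each array, by group, with mean and SD; dotted lines separate sets with different reference RNA, between which levels cannot be compared. All 5 whole lung OVA arrays lie above all 5 PBS arrays for Ms4a1, and all 5 whole lung Stat6+/- arrays lie below all Stat6-/- arrays for Cd27.

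Whole lung OVA against PBS asks what allergen does to lymphocyte RNA in the organ as a whole. All 7 genes had a higher mean with OVA, with a median difference of 1.48 against 0.03 over all probes, and 2 of the 7 passed the test. The test was limma's moderated test on all 17047 probes, called at a Benjamini-Hochberg adjusted p under 0.05. It called 1.75% of all probes, 256 higher and 43 lower, and 5 of the 7 members had an unadjusted p under 0.05, against 15.8% of all probes.

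Ms4a1, the CD20 gene, read 1.53, 1.66, 0.68, 0.70 and 0.31 on OVA replicates 1, 2, 4, 5 and 6. On PBS replicates 1 to 5 it read -0.10, -1.43, -0.95, -1.57 and -1.18. Every OVA array was above every PBS array. The means were 0.97 ± 0.59 and -1.04 ± 0.58 (SD, n = 5 each), a rise of 2.02 ± 0.36 (SE), 4.05-fold (limma, adjusted p = 0.0228).

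Pou2af1, the B cell coactivator, had the widest difference of the 7. It read 3.14, 3.77, 1.75, 3.38 and 1.02 on the same OVA arrays. It read 1.19, -1.59, -0.44, -0.88 and -0.72 on the PBS arrays. PBS replicate 1 lay above OVA replicate 6, and the other PBS arrays lay below all OVA arrays. The rise was 3.10 ± 0.62 (SE), 8.56-fold, with a 95% interval of 1.72 to 4.48 (limma, adjusted p = 0.0361), which lay at percentile 99.72 of all probes' differences.

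The receptor chains pointed the same way without passing. Cd79a was 0.95 ± 0.76 with OVA and -1.02 ± 0.98 with PBS (SD, n = 5 each), a difference of 1.97 ± 0.51 (limma, adjusted p = 0.0842). It lay between 0.08 and 1.80 on the OVA arrays, and between -1.98 and -0.87 on 4 PBS arrays, with PBS replicate 1 at 0.57. Without that array the difference was 2.37 and passed (limma, adjusted p = 0.0294). Cd79b was 0.53 ± 0.67 against -0.95 ± 0.95, a difference of 1.48 ± 0.48 (limma, adjusted p = 0.161), and its groups overlapped. PBS replicate 1 was the highest PBS array for Cd79a, Cd79b, Ms4a1 and Pou2af1, and not for the other 3 members.

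Among T cell genes, Cd3e was 0.60 ± 0.38 with OVA and -0.44 ± 0.50 with PBS, a difference of 1.04 ± 0.30 (limma, adjusted p = 0.116). It lay between 0.08 and 1.06 on OVA arrays and between -0.89 and -0.36 on 4 PBS arrays, with PBS replicate 3 at 0.35. Cd27 (0.51 ± 0.34, limma, adjusted p = 0.494) and Cd7 (0.54 ± 0.57, limma, adjusted p = 0.684) had intervals that included 0, from -0.23 to 1.25 and from -0.72 to 1.81. At 5 arrays a group, a rise of the size seen for Ms4a1 lay outside both intervals.

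Both calls depended on single arrays. Ms4a1 lost its call without OVA replicate 1 or PBS replicate 2, 4 or 5, with differences between 1.88 and 1.99. Pou2af1 lost it without OVA replicate 1, 2 or 5 or PBS replicate 2, 3, 4 or 5, with differences between 2.81 and 3.11.

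**Figure D2:**
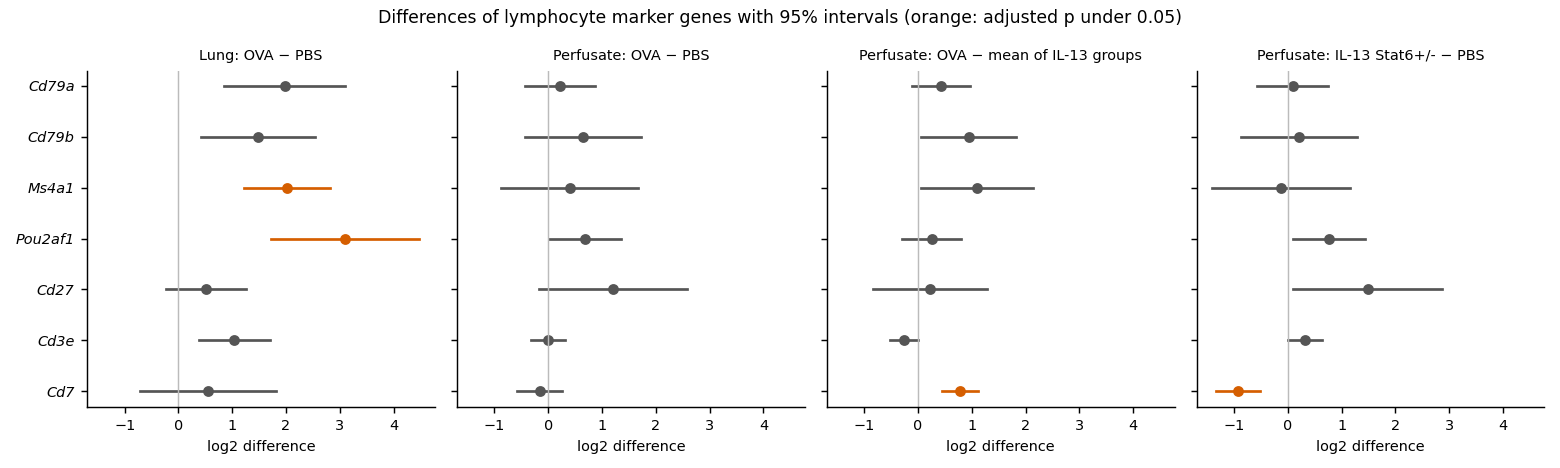
Log2 differences of the 7 genes with 95% intervals (horizontal axis) in 4 comparisons; orange marks an adjusted p under 0.05. Ms4a1 and Pou2af1 are called in whole lung, Cd7 is called in both perfusate comparisons that involve IL-13, and none is called for OVA against PBS in perfusate.

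Other genes of the B cell list rose with these in whole lung. Of 27 tested genes in a list of B cell receptor and B cell genes without the members, 8 rose with OVA and 0 fell, 23 had a difference above 0 and the median was 1.49. They included Cd72, a receptor that restrains B cell signalling (2.48 ± 0.48), Bcl11a, a B lineage transcription factor (2.33 ± 0.45), the receptor adaptor Blnk (1.97 ± 0.26) and Bruton's tyrosine kinase Btk (1.93 ± 0.40). That count ranged from 1 to 11 as each array was left out, and was 1 without OVA replicate 1 or 2 or PBS replicate 2, 4 or 5. Blnk, Cd37 and Fcer2a of these 8 were also called higher in whole lung IL-13 Stat6+/- against Stat6-/- (2.14, 1.53 and 2.61). No B cell member was called there, and which cells carried the list genes was not tested. Of 13 plasma cell genes 3 rose, namely Irf4, a transcription factor of plasma cell differentiation (2.50 ± 0.38), Derl3, an endoplasmic reticulum degradation factor (2.12 ± 0.34), and the antibody heavy chain gene Ighg3 (1.80 ± 0.37), with a list median of 0.33.

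Of 33 T cell genes 2 rose and 0 fell: Sh2d1a, the adaptor SAP (2.11 ± 0.38), and the receptor adaptor Lcp2 (1.73 ± 0.37). Of these 33, 31 had a difference above 0, 23 had an unadjusted p under 0.05 and the median was 1.14. The count fell to 0 without OVA replicate 1 or PBS replicate 3, 4 or 5. Of 13 natural killer and cytotoxic genes Gzma, a granzyme, rose (1.50 ± 0.27), and of 8 genes that encode partners of CD27 or CD7, Lgals1, the galectin that binds CD7, rose (1.29 ± 0.25). Gzma lost its call without OVA replicate 1 or PBS replicate 2, 3 or 5, and Lgals1 without OVA replicate 1, 2 or 6 or PBS replicate 2, 3, 4 or 5. None of 11 lymphoid homing and lymphoid tissue genes passed the test (limma), and 5 had an unadjusted p under 0.05.

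Genes of all leukocytes moved with the lymphocyte genes in whole lung. Of 12 such genes 5 rose, among them Cd52 (2.13 ± 0.32), with a median of 1.23, and their mean on each array lay between 0.74 and 1.31 with OVA and between -0.40 and 0.28 with PBS. Of 12 macrophage genes 5 rose, among them the scavenger receptor Msr1 (2.38 ± 0.44), with a median of 1.50 and array means of 1.06 to 1.77 against -0.39 to 0.40. The leukocyte count was 2 without OVA replicate 1 or PBS replicate 2, 3, 4 or 5, and the macrophage count was 2 without PBS replicate 4. Of 15 eosinophil, basophil and mast cell genes 3 rose, among them the eosinophil ribonuclease gene Rnase2a (4.73 ± 0.55) and the basophil protease gene Mcpt8 (3.77 ± 0.48), with array means of 1.29 to 1.66 against -0.09 to 0.09. That count was 1 without PBS replicate 2, 4 or 5. Of 14 endothelial and fibroblast genes 0 passed (limma, 6 with an unadjusted p under 0.05), with a median of -0.44. Their part in the rise of the members was not tested.

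For RNA from tracheal perfusate, OVA against PBS asks the same. None of the 7 members was called (limma), 1 had an unadjusted p under 0.05, against 9.16% of probes, and the test called 0.237% of 16873 probes. The median of the members was 0.40 against -0.01 over all probes, and 5 of 7 were above 0.

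The perfusate differences were smaller for the 2 genes called in whole lung, although the difference between tissues could not be tested across platforms. Ms4a1 read 0.42, 1.26, 1.09, 2.68 and -0.01 on OVA replicates 28 to 32 and 0.39, 0.15, 0.81, 0.65 and 1.46 on PBS replicates 22 to 26. The groups overlapped, and the difference of 0.40 ± 0.61 had an interval from -0.88 to 1.67 (limma, adjusted p = 0.908). Pou2af1 was 0.44 ± 0.58 with OVA and -0.24 ± 0.28 with PBS (SD, n = 5 each), a difference of 0.68 ± 0.32 (limma, adjusted p = 0.54). Cd79a (0.22 ± 0.31), Cd79b (0.64 ± 0.52), Cd3e (-0.01 ± 0.15) and Cd7 (-0.16 ± 0.20) had intervals that included 0.

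Cd27 read 0.63, 0.80, 0.37, 0.94 and 1.59 on OVA replicates 28 to 32. On PBS it read -1.34, -2.02, -0.80 and 2.25 on replicates 22, 23, 25 and 26, with no value on replicate 24. All OVA arrays were above 3 of the 4 PBS arrays and below the fourth. The difference was 1.20 ± 0.65 (limma, adjusted p = 0.624), and it was 0.63 without PBS replicate 23 and 2.06 without PBS replicate 26. Of 26 B cell genes 0 were called (limma, 5 with an unadjusted p under 0.05) with a median of 0.41, and of 33 T cell genes 0 were called (limma, 1 with an unadjusted p under 0.05) with a median of 0.26. All 12 leukocyte genes had a difference above 0 with a median of 0.79, and 0 were called (limma, 6 with an unadjusted p under 0.05). Other lists held calls. Of 15 eosinophil, basophil and mast cell genes 3 rose, Rnase2a (1.88 ± 0.31), Tpsab1 (1.57 ± 0.29) and Mcpt2 (1.56 ± 0.23). Cd5l of 11 macrophage genes (1.79 ± 0.27) and Fkbp11 of 13 plasma cell genes (1.07 ± 0.20) also rose.

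Perfusate with OVA was then set against perfusate with IL-13, which asks whether allergen and the cytokine leave different lymphocyte RNA. Against the Stat6+/- group, 1 of 7 members, Cd7, was higher with OVA, where 3.57% of probes were called. Against the mean of the 3 IL-13 groups, the same gene was the 1 of 7 called, where 5.44% of probes were called, and 3 of 7 had an unadjusted p under 0.05, against 22.6% of probes. These comparisons share the OVA arrays, whose genotype the labels do not give, so agent and Stat6 genotype cannot be told apart.

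Cd7 read 0.64, 0.78, 0.50, 0.66 and 1.02 on OVA replicates 28 to 32, a narrow group. On Stat6+/- replicates 4 to 8 it read -0.52, -0.42, 0.68, -0.30 and 0.33. On Stat6-/- replicates 10 to 14 it read -0.73, -0.62, -0.02, -0.56 and -0.30. On Epi+ replicates 16 to 20 it read -0.09, 0.79, 0.83, -0.19 and 0.12. All Stat6-/- arrays lay below all OVA arrays, while 1 Stat6+/- array and 2 Epi+ arrays lay within the OVA range.

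The Cd7 difference was 0.76 ± 0.20 against Stat6+/- (limma, adjusted p = 0.0381) and 0.78 ± 0.16 against the mean of the IL-13 groups (limma, adjusted p = 0.00841), 1.70-fold and 1.72-fold. Within reference preparations 1.1, 1.2, 1.3, 1.4 and 1.5 the first was 1.08, 1.08, 1.16, -0.18 and 0.69. Within preparation 1.4 the second was 0.00, and it lay between 0.72 and 1.15 in the other preparations. The first call was lost without OVA replicate 28, 29, 31 or 32 or Stat6+/- replicate 4, 5 or 7, with differences between 0.66 and 0.77. Leaving out any of the 20 arrays did not end the second.

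None of the B cell members was called between OVA and IL-13. Against the mean of the IL-13 groups Cd79b differed by 0.94 ± 0.42 (limma, adjusted p = 0.192), Ms4a1 by 1.10 ± 0.50 (limma, adjusted p = 0.196) and Cd79a by 0.42 ± 0.26 (limma, adjusted p = 0.338). Within reference preparations 1.4 and 1.5 the difference was -0.16 and -0.28 for Cd79a and -0.36 and -0.18 for Cd79b, and within 1.5 it was -0.39 for Ms4a1. Against Stat6+/- alone the differences were 0.43 for Cd79b, 0.52 for Ms4a1, 0.12 for Cd79a and -0.08 for Pou2af1. Against the mean, Cd3e differed by -0.26 ± 0.12 (limma, adjusted p = 0.227), Cd27 by 0.23 ± 0.50 and Pou2af1 by 0.25 ± 0.26. Of 26 B cell genes 2 were higher with OVA, the antibody heavy chain gene Ighm (1.99 ± 0.31) and the transcription factor gene Spib (0.64 ± 0.17), with a list median of 0.33. That count was 1 without OVA replicate 28, 29, 31 or 32. Of 15 eosinophil, basophil and mast cell genes 4 were higher with OVA, among them the mast cell tryptase gene Tpsab1 (2.49 ± 0.24), with array means of 0.23 to 0.49 with OVA and of -0.57 to -0.07 over the IL-13 arrays, and their part in the differences of the members was not tested. No T cell gene of 33 was called (limma, 7 with an unadjusted p under 0.05), with a median of -0.11.

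In whole lung the groups can only be set side by side. The 3 IL-13 groups had means of -1.71, -1.56 and -1.22 for Cd79a (Stat6+/-, Stat6-/- and Epi+), -1.53, -1.05 and -1.63 for Ms4a1 and -0.87, -0.56 and -0.72 for Cd3e. The OVA means on the smaller platform were 0.95, 0.97 and 0.60, and the PBS means there were -1.02, -1.04 and -0.44. Platform and reference pool cannot be told apart from treatment in this set of values, so no difference was computed.

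IL-13 against PBS in perfusate sets the cytokine against saline, without allergen. These comparisons share the PBS arrays. The labels give no genotype for PBS, so IL-13 and Stat6 genotype cannot be told apart in them. Cd7 was called lower in Stat6+/- and in Stat6-/- perfusate and was the 1 of 7 members called in each, against 7.13% and 0.599% of probes. In Epi+ perfusate 0 of 7 were called (limma, 2 with an unadjusted p under 0.05, against 20.5% of probes), where 2.83% of probes were called.

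On PBS replicates 22 to 26 Cd7 lay between 0.54 and 1.54, with replicate 24 highest. Every PBS array lay above every Stat6-/- array, and 4 of 5 Stat6+/- arrays lay below all PBS arrays. Cd7 fell by 1.32 ± 0.20 in Stat6-/- (2.50-fold lower, limma, adjusted p = 0.00479) and by 0.92 ± 0.20 in Stat6+/- (1.90-fold lower, limma, adjusted p = 0.00742). In Epi+ the difference was -0.58 ± 0.20 (limma, adjusted p = 0.11). Within the 5 reference preparations the Stat6-/- difference lay between -1.56 and -1.09 and the Stat6+/- difference between -1.11 and -0.47.

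The order of the Cd7 means in perfusate was PBS (0.88 ± 0.39), OVA (0.72 ± 0.20), Epi+ (0.29 ± 0.49), Stat6+/- (-0.05 ± 0.52) and Stat6-/- (-0.45 ± 0.29, SD, n = 5 each). Neighbours in that order differed by less than the larger of their SDs. Between Stat6+/- and Stat6-/- the difference was 0.40 ± 0.20 (limma, adjusted p = 0.416), and between Epi+ and Stat6-/- it was 0.74 ± 0.20 (limma, adjusted p = 0.134). The Cd7 fall in Stat6-/- lost its call without the 3 Stat6-/- arrays that were low in Y-linked genes (-1.34, limma, adjusted p = 0.105, 2 arrays left). On those 3 arrays Xist, the RNA of the inactive X chromosome, lay between -0.33 and 0.91, and on the other 22 perfusate arrays between -5.70 and -1.36.

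In Stat6+/- perfusate against PBS, T cell genes other than Cd7 were called higher, and natural killer genes in both directions. Of 14 natural killer and cytotoxic genes the granzyme genes Gzmb and Gzma were called, Gzmb falling by 0.94 ± 0.20 and Gzma rising by 0.97 ± 0.27. The Gzma call was lost without Stat6+/- replicate 4, 6, 7 or 8 or PBS replicate 22, 23 or 25. In Stat6+/- perfusate 5 of 33 T cell genes rose and 0 fell, with a median of 0.47, among them Cd3g (2.15 ± 0.62) and Cd3d (1.71 ± 0.41), chains of the same complex as Cd3e, the co-receptor chain gene Cd8b1 (1.92 ± 0.50) and Tcra (0.69 ± 0.20). Without Stat6+/- replicate 6 the count was 0. Cd3e itself differed by 0.32 ± 0.15 (limma, adjusted p = 0.221). Of 9 partner genes of CD27 and CD7 Traf5, an adaptor of the CD27 family, fell by 1.36 ± 0.35. Of 12 leukocyte genes 3 rose, among them Coro1a (1.78 ± 0.41). In Stat6-/- perfusate 0 of 33 T cell genes were called (limma, 3 with an unadjusted p under 0.05).

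**Figure D3:**
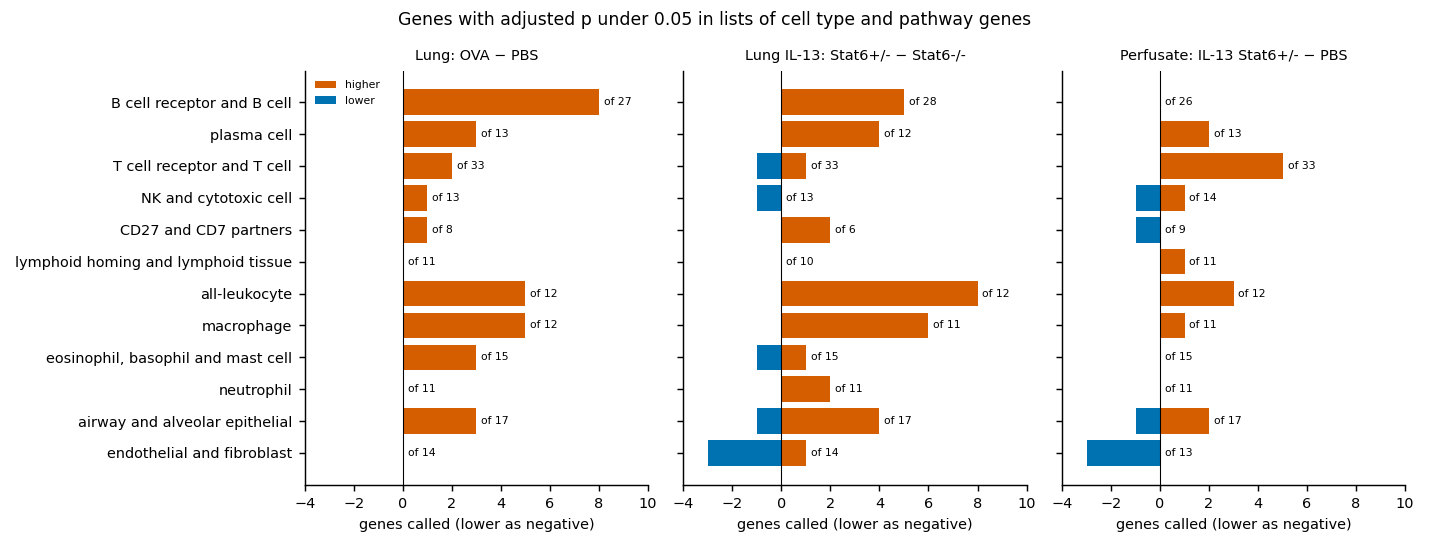
Number of genes called higher (orange) or lower (blue, drawn as negative) with an adjusted p under 0.05 in each list of cell type or pathway genes, for 3 comparisons; the figure beside each bar is the number of genes tested. In whole lung with OVA 8 of 27 B cell genes, 5 of 12 leukocyte genes and 5 of 12 macrophage genes are higher, and in perfusate of Stat6+/- mice 5 of 33 T cell genes and 3 of 12 leukocyte genes are higher; the lists differ in size.

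Cd27 differed by Stat6 genotype, and not the same way in the 2 tissues. In whole lung with IL-13 it read -2.27, -0.98, -2.95, -3.22 and -1.54 on Stat6+/- replicates 1, 3, 4, 5 and 6. It read -0.48, -0.44, -0.53, -0.57 and -0.86 on Stat6-/- replicates 1, 2, 4, 5 and 6. Every Stat6+/- array lay below every Stat6-/- array. Cd27 fell by 1.61 ± 0.40 in Stat6+/- relative to Stat6-/- (3.06-fold lower, limma, adjusted p = 0.0372). It was the 1 of 7 members called, against 4.84% of 16096 probes, and the difference was -1.76 within reference pool 3 and -1.52 within pool 4.

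In perfusate the same genotypes read 0.47, 0.89, 3.04, 0.82 and 0.53 on Stat6+/- replicates 4 to 8 and 0.05, -1.43, -0.26, -0.12 and -1.44 on Stat6-/- replicates 10 to 14. Here every Stat6+/- array lay above every Stat6-/- array. The difference was 1.79 ± 0.61 (limma, adjusted p = 0.152), and it was above 0 within all 5 reference preparations, from 0.42 to 3.30. None of the 7 members was called (limma, 1 with an unadjusted p under 0.05, against 12.8% of probes), where 3.14% of probes were called.

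The difference between tissues was tested as an interaction on the arrays of the larger platform. It was 3.40 ± 0.76, with a 95% interval of 1.84 to 4.97 (limma, adjusted p = 0.00696). Cd27 was the 1 of 7 members called, against 4.31% of 15370 probes. The adjusted p stayed under 0.05 as each of the 20 arrays was left out. In whole lung alone the call was lost without any 1 of the 5 Stat6-/- arrays or Stat6+/- replicate 4 or 5, with differences between -1.68 and -1.35. In whole lung 2 of the Stat6-/- arrays were low in Y-linked genes, as were 3 in perfusate. The Y-linked gene Uty read -4.35 and -3.66 on those 2, against -1.38 to 0.38 on 12 other whole lung IL-13 arrays. Without those 2 arrays no member was called in whole lung. The tissue difference was not tested without the arrays low in Y-linked genes.

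In Epi+ perfusate Cd27 read 0.87, 1.13, 0.93 and 2.14 on replicates 16, 17, 19 and 20, with no value on replicate 18. All 4 lay above all Stat6-/- arrays, with a difference of 2.06 ± 0.65 (limma, adjusted p = 0.276). None of the members was called between Epi+ and Stat6-/- in perfusate (limma, 2 with an unadjusted p under 0.05, against 7.41% of probes), where 0.486% of probes were called. In whole lung the Epi+ arrays read between -1.25 and 0.19, overlapping Stat6-/-, and the difference was 0.16 ± 0.41 (limma, adjusted p = 0.99). None of the members was called there either (limma, 1 with an unadjusted p under 0.05, against 4.17% of probes), where 0.0746% of probes were called. That 1 was Pou2af1 (1.40 ± 0.62, limma, adjusted p = 0.983).

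Against PBS, Cd27 differed by 1.48 ± 0.65 in Stat6+/- perfusate (limma, adjusted p = 0.189), 1.75 ± 0.68 in Epi+ (limma, adjusted p = 0.162) and -0.31 ± 0.65 in Stat6-/- (limma, adjusted p = 0.827). PBS replicate 26, at 2.25, decided these values. Without it the first was 2.34 (limma, adjusted p = 0.0204) and the second 2.61 (limma, adjusted p = 0.031), while the third changed sign, to 0.55 (limma, adjusted p = 0.6).

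In whole lung, genes of the B cell, leukocyte and macrophage lists were called in the opposite direction to Cd27. Genes called in the same direction came from the cytotoxic, T cell, eosinophil, epithelial and endothelial lists. Of 13 natural killer and cytotoxic genes Gzmb, a granzyme, fell by 2.58 ± 0.63, 3 had a difference above 0 and the median was -0.38. Between Stat6+/- and Stat6-/- lung 5 of 28 B cell genes rose, among them Fcer2a, the low affinity IgE receptor (2.61 ± 0.32), Blnk (2.14 ± 0.38) and Ly86 (1.90 ± 0.24), with a median of 0.42, and the count was 3 without Stat6-/- replicate 4 or 6. Of 12 plasma cell genes 4 rose, among them Derl3 (2.32 ± 0.37) and Xbp1 (1.15 ± 0.22), which secretory cells of other kinds also use. Of 33 T cell genes Il7r rose (3.06 ± 0.72) and Gata3 fell by 1.32 ± 0.21, the Il7r call being lost without any 1 Stat6-/- array or Stat6+/- replicate 5. Of 12 leukocyte genes 8 rose with a median of 1.38, and of 11 macrophage genes 6 rose with a median of 1.86, among them Itgax (3.16 ± 0.27) and Cd68 (3.12 ± 0.32). The leukocyte list mean lay between 0.46 and 1.63 on Stat6+/- arrays and between -0.69 and 0.00 on Stat6-/- arrays. Of 14 endothelial and fibroblast genes Lum, Tek and Kdr fell and Col3a1 rose, with a median of -0.21. Of 15 eosinophil, basophil and mast cell genes Siglecf fell by 1.09 ± 0.27 and Rnase2a rose (5.04 ± 0.73). Of 17 epithelial genes Scgb3a2 fell by 3.19 ± 0.45 and 4 rose. None of the 4 B cell members was called (limma): Pou2af1 differed by 0.64 ± 0.61, Cd79a by -0.15 ± 0.44, Cd79b by -0.17 ± 0.33 and Ms4a1 by -0.48 ± 0.79. The part of these shifts in the Cd27 result was not tested.

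Among B cell members, Stat6+/- perfusate arrays spread more than the other groups. Cd79a read -1.57, -0.93, 1.51, -0.55 and 0.62 on Stat6+/- replicates 4 to 8, and Cd79b -1.95, -0.87, 2.64, -0.02 and 0.66. Replicate 6 was the highest Stat6+/- array and replicate 4 the lowest for 6 of 7 members, all but Cd3e. The SD of Cd79a was 1.24 in this group against 0.18 to 0.45 in the other perfusate groups. The list mean of the other B cell genes ran from -0.37 to 0.89 over Stat6+/- perfusate arrays and from 0.14 to 0.40 over OVA arrays.

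The receptor chains followed each other from array to array in perfusate. Over the 25 perfusate arrays Cd79a and Cd79b correlated with r = 0.87 and rho = 0.80 (permutation p = 1e-05 for r, the smallest that the permutations can give, and 0.00063 adjusted over the 63 pairs computed). Without the 2 arrays farthest from the median of Cd79a r was 0.75, and it was 0.86 for deviations from the group means. Ms4a1 correlated with Cd79b with r = 0.70 and rho = 0.58 (permutation p = 0.00015 and 0.0029, adjusted 0.0031 and 0.03), and without the 2 farthest arrays r was 0.61. Pou2af1 followed them less in perfusate: with Cd79b it had r = 0.47 and rho = 0.22 (permutation p = 0.018 and 0.29, adjusted 0.06 and 0.43), and r was 0.14 without the 2 farthest arrays. With Cd79a it had r = 0.54 and rho = 0.39 (permutation p = 0.0057 and 0.054, adjusted 0.03 and 0.13), and r was 0.24 without the 2 farthest arrays. Over the 15 whole lung IL-13 arrays Cd79a and Cd79b had r = 0.30 and rho = 0.44 (permutation p = 0.28 and 0.1, adjusted 0.4 and 0.2), and r was 0.13 without the 2 farthest arrays. Over the 10 whole lung OVA and PBS arrays they had r = 0.78 and rho = 0.90 (permutation p = 0.0044 and 0.00074, adjusted 0.025 and 0.016). There r was 0.88 without the 2 farthest arrays and 0.51 for deviations from the group means. On the same 10 arrays Pou2af1 had r of 0.95 with Cd79a and 0.73 with Cd79b, and 0.87 and 0.36 for deviations from the group means. In perfusate Cd27 had r of 0.34 with Cd79a and 0.36 with Cd79b over 23 arrays, rho of 0.26 and 0.27, and permutation p of 0.11 and 0.087 for r (adjusted 0.22 and 0.19). Without the 2 farthest arrays these r were 0.10 and 0.16. The T cell members Cd3e and Cd7 ran against each other in perfusate, with r = -0.57 and rho = -0.48 (permutation p = 0.0029 and 0.015, adjusted 0.025 and 0.056). Their r was -0.40 without the 2 farthest arrays and -0.38 for deviations from the group means. Cd7 followed the B cell gene Cd79a, with r = 0.55 and rho = 0.54 (permutation p = 0.0039 and 0.0061, adjusted 0.025 and 0.038).

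**Figure D4:**
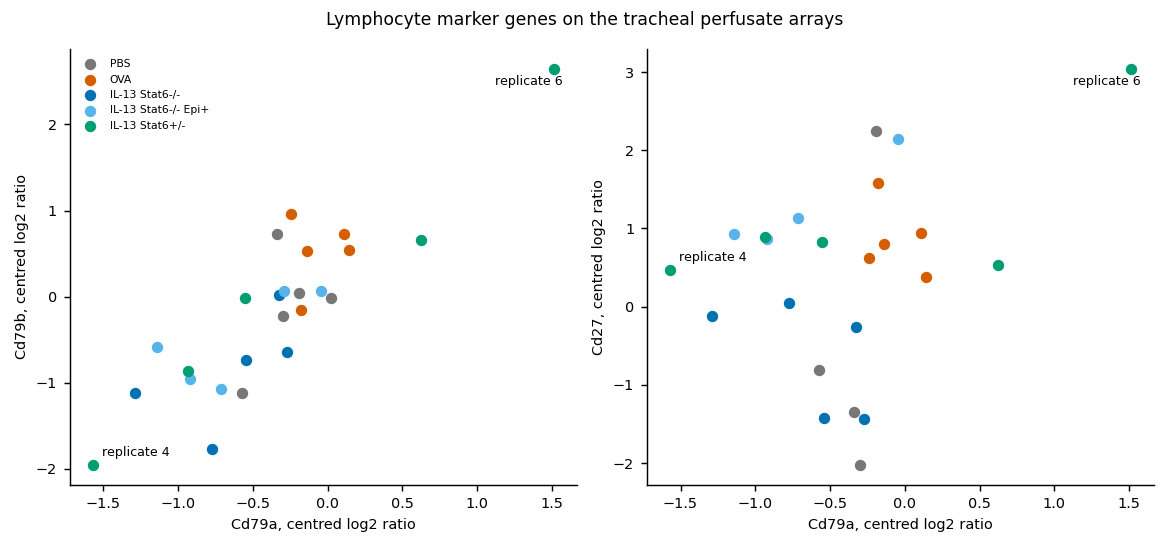
Each point is 1 perfusate array: Cd79b (left) and Cd27 (right) against Cd79a, all as centred log2 ratios and coloured by group. Cd79a and Cd79b lie along 1 line (r = 0.87) with Stat6+/- replicates 4 and 6 at its ends, while Cd27 follows Cd79a loosely (r = 0.34).

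The genes most like each member were ranked over the 25 perfusate arrays, by Pearson's r as a description. For both receptor chains they included the other chain and Cd72, a gene of the B cell list. For Cd79a they were Cd72 (r = 0.90), the kinase gene Tec of the T cell list (0.89) and Cd79b (0.87). For Cd79b they were Hvcn1 (0.94), Cd72 (0.92) and Cd79a (0.87). For Ms4a1 they were Fcrla (0.83), a gene of B cells, Spopl (0.82) and Gm8979 (0.78), and for Pou2af1 they were St8sia4 (0.84), Cd48 (0.79) and Fcmr (0.76), the IgM receptor. For Cd3e they were Nup37 (0.87), 1600012P17Rik (0.87) and Psenen (0.87), and for Cd7 Plce1 (0.87), Nts (0.76) and Nup88 (0.75), none of them from the T cell list. For Cd27 they were Nadsyn1 (0.75, n = 23), Il21r (0.73, n = 20) and Cyc1 (0.72, n = 23). These arrays share reference preparations and the group differences, which enter each r. Over the 15 whole lung IL-13 arrays no gene of the B cell list was among the closest to either chain. There they were Lsm12 (0.88), Plcd1 (0.85) and E2f1 (0.82) for Cd79a, and Ptpn18 (0.93), Hap1 (0.91) and Med25 (0.91) for Cd79b. Over the 10 whole lung OVA and PBS arrays Chaf1b was closest to Cd79a (0.95) and the B cell gene Blk to Cd79b (0.97).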

How the data were processed

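Per the labels, channel 1 of each array held a reference RNA and channel 2 the sample, perfusate RNA went through 1 round of amplification (3 arrays of reference preparation 1.3 do not state it), and whole lung RNA was not amplified. The authors deposited 1 log2 ratio per spot, on 40 arrays of 19152 spots and 10 of 18240. Scanner, background correction, normalization and ratio direction were not stated there. Array medians ran from -0.96 to 0.30, so each array was centred on its median. The mean shift removed was -0.17 for whole lung OVA against PBS, -0.37 for whole lung Stat6+/- against Stat6-/-, -0.20 for Stat6-/- and -0.18 for Epi+ against PBS in perfusate. Differences are relative to these shifts. Arrays held 15693 to 18655 spots with a value, and their number limits the precision. No spot intensities were used.

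Spots of 1 accession were averaged. Symbols came from the platform annotation (15418 and 14857 spots with 1 symbol). Probes with values on at least 3 arrays of every group in a fit were tested by least squares with the reference preparation or pool as a block, with variances moderated by limma 3.58.1 in R 4.3.3, and p-values were adjusted over all probes. The script was tested on simulated data. Correlations used 100000 permutations in scipy 1.17.1. Motifs were searched in the RefSeq promoter table, which held 4 of the members. Named list genes were at most the 4 called with the largest difference per list and comparison. The members and lists were chosen with earlier results of these data known. Alternatives changed centring, filters, weights, blocks, arrays and groups fitted.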

Additional observations from a re-analysis of the deposited data

Results flagged for a closer look

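Of 69 groups of 4 or 5 arrays tested for 1 array far from the others, 6 had one, and chance marks about 1 in 20 groups. In whole lung, Cd79b was -2.58 on PBS replicate 5, with the nearest other array at -0.76, and Ms4a1 was -4.96 on Epi+ replicate 2, with the nearest at -1.61. In perfusate, Cd27 was 3.04 on Stat6+/- replicate 6, with the nearest at 0.89, on the array where 5 other members were also highest. Cd3e was 0.63 on PBS replicate 25 and -0.28 on Epi+ replicate 20, and Cd7 was 1.54 on PBS replicate 24. The Stat6+/- minus Stat6-/- difference of Cd27 was larger in perfusate than in whole lung by 3.40 (limma, adjusted p = 0.00696), and it had opposite signs in the 2 tissues. Perfusate RNA was amplified and whole lung RNA was not, so tissue and amplification cannot be told apart in that value.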

How the results depend on the processing

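The calls on members were few and many were near the threshold. Over 186 tests of a called member under an alternative, all 186 kept the direction and 135 the call, and of 1745 tests of members not called 8 passed. Values as deposited, not centred, gave 0 called members in place of 1 for perfusate OVA against Stat6+/-, Stat6+/- and Stat6-/- against PBS and whole lung Stat6+/- against Stat6-/-, and 0 in place of 2 for whole lung OVA against PBS. Scaling after centring gave 1 in place of 0 for Epi+ against PBS, 0 for whole lung Stat6+/- against Stat6-/-, 1 for whole lung OVA and 0 for the tissue difference. Quantile normalization gave 0 for whole lung Stat6+/- against Stat6-/- and 1 for whole lung OVA. Requiring a value on every array gave 0 for the tissue difference, since Cd27 was then not tested. Array weights gave 2 for Stat6+/- and 1 for Epi+ against PBS and 4 for whole lung OVA. With no reference block, both perfusate OVA against IL-13 counts were 0. Fitting only the groups compared gave 0 for OVA against Stat6+/-, Stat6+/- and Stat6-/- against PBS and whole lung Stat6+/- against Stat6-/-. Without reference preparation 1.3 the count was 0 for both OVA against IL-13 comparisons and for Stat6-/- against PBS. Without the Stat6-/- arrays low in Y-linked genes (2 arrays then left in perfusate, with the minimum lowered to 2) it was 0 for OVA against Stat6+/-, Stat6-/- against PBS and whole lung Stat6+/- against Stat6-/-. Where not named, the cause was not tested.

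Leaving out each array in turn gave 0 to 1 called members for OVA against Stat6+/-, 1 to 2 for Stat6+/- and 0 to 1 for Epi+ against PBS, 0 to 1 for whole lung Stat6+/- against Stat6-/- and 0 to 3 for whole lung OVA. Cd7 reversed within reference preparation 1.4, at -0.18 for perfusate OVA minus Stat6+/-. Over all probes, the counts of calls under the other settings were 0 (replicate block) to 796 (array weights) for whole lung OVA against PBS, which had 299, and 95 to 1044 for whole lung Stat6+/- against Stat6-/-, which had 779. They were 4 to 15 for whole lung Epi+ against Stat6-/- (12) and 305 to 798 for the tissue difference (662). In perfusate, fitting only the groups compared gave the lowest counts but in 1 comparison: 0 to 66 for OVA against PBS (40), 3 to 1249 for OVA against Stat6+/- (603), 4 to 2299, 0 to 270 and 0 to 1305 for Stat6+/- (1203), Stat6-/- (101) and Epi+ (478) against PBS, and 69 to 989 and 1 to 170 for Stat6+/- (529) and Epi+ (82) against Stat6-/-. For OVA against the mean of the IL-13 groups (918) they were 196, without centring, to 1317. Whether the replicate numbers of whole lung pair the arrays is not known, and 4 shared numbers per comparison are too few to decide it. Same-numbered deviations correlated between -0.17 and -0.01 for OVA and PBS and between -0.10 and 0.27 for Stat6+/- and Stat6-/-. In these, 0 of 4 and 1 of 4 arrays were closest to their own number. With the replicate block 0 members were called for whole lung OVA, and 0 with the reference pool kept for Stat6+/- against Stat6-/-. Perfusate groups share no replicate number.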
